A study of Homo sapiens with 23 samples.

Results

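The mitochondrial ribosomal protein genes were taken as every protein-coding row of the deposited PRO-seq table whose GENCODE v44 symbol starts with MRPL or MRPS followed by a number, matched by Ensembl identifier. The rule found 78 genes among the 60605 rows, of which 49 carry an MRPL and 29 an MRPS symbol. PRO-seq maps RNA polymerases that are engaged in transcription by labelling the end of the nascent RNA, so its counts follow the polymerases on a gene and not the amount of finished RNA. The cells were T47D, an ER-positive luminal breast cancer line, and all 23 libraries came from one line, Clone 28, in which TRPS1 carries a degradable dTAG. TRPS1 is a repressive GATA-family transcription factor. As a model the clone is a single isolate, and per the study's methods some TRPS1 copies in it are disrupted, so that only tagged protein is made.

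The DMSO group received 0.1% DMSO for 24 h in 4 replicates. The treated groups received 50 nM dTAG-13 together with 50 nM dTAGV-1, small molecules that direct tagged protein to degradation, for 0.5, 1, 2 or 4 h in 4 replicates each and for 24 h in 3 replicates (numbers 2, 3 and 4). Replicates were treated and harvested at different hours of a single day, so p-values measure the spread between such harvests of 1 clone. Total counts ranged from 4408544 to 17571616 per library, and genes of the mitochondrial DNA took 1.73% to 6.5% of them, with the highest share in the shallowest library, 4 h replicate 1. The 10 luminal markers summed to 7160 to 7930 CPM (the count divided by the TMM-scaled library size) in DMSO libraries, against 18.7 to 20.9 for 3 basal, 13.4 to 15.4 for 4 fibroblast, 5.58 to 8.5 for 3 leukocyte and 4.13 to 4.8 for 3 endothelial markers. In treated libraries the luminal sum was 6430 to 7370 CPM and the basal sum 22.3 to 32.9 CPM, and their part in the results was not tested. The TRPS1 gene itself had 8000 to 10200 CPM in DMSO and 8930 to 12000 CPM in treated libraries; degradation acts on its protein, which these counts do not measure.

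Mitochondria keep a ribosome of their own, which translates the few proteins that mitochondrial DNA encodes, all of them subunits of the respiratory chain and the ATP synthase. Its RNAs come from mitochondrial DNA, but all of its proteins are made from nuclear genes, translated in the cytosol and imported. MRPL genes were named for the large subunit, which joins amino acids, and MRPS genes for the small subunit, which reads the messenger. Some are homologues of bacterial ribosomal proteins, and others occur only in mitochondrial ribosomes. They are expressed in almost every cell and their genes are often short, as are many housekeeping genes.

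RefSeq promoters (GRCh38.p14, 250 bases before to 50 after the start) matched 69 of the 78 genes by symbol. The word AAGATGGC, the core of the site read by the zinc finger factor YY1, lay on either strand in 20 of them (29%), against 609 of 15345 protein-coding promoters (3.97%), 828 of all 27305 promoters (3.03%), 10 of 95 promoters of short housekeeping genes (10.5%) and 7 of 63 of cytosolic ribosomal protein genes (11.1%). In 15 mitochondrial ribosomal protein genes (21.7%) it lay on the gene's own strand after the start, beginning at base 7 to 36 of the RefSeq transcript, against 2.24% of protein-coding and 1.39% of all promoters. The ATG inside the word was an annotated start codon of the gene in 12 of those 15. Windows of 30 bases follow for the named genes among the 15, with the word in capitals.
MRPL42 (chr12:93467511-93467540, plus strand): aggattgaaacAAGATGGCgggttcgtggt
MRPL46 (chr15:88467362-88467391, minus strand): tgggagaacgaAAGATGGCggcgcccgtaa
MRPS18A (chr6:43687764-43687793, minus strand): gtaggtttttgAAGATGGCggccctcaagg
MRPS18B (chr6:30617852-30617881, plus strand): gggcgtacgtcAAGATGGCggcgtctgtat
MRPS27 (chr5:72320206-72320235, minus strand): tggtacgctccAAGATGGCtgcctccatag

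The word CCGGAAG, read by ETS-family factors, was found on either strand in 29 of the 69 promoters (42%), against 14.4% of protein-coding and 10.7% of all promoters, 34.7% of short housekeeping and 33.3% of cytosolic ribosomal protein promoters. It overlapped AAGATGGC in 0 of the 69. Any of 4 GATA words (AGATAA or else TGATAA, or with the last base changed, AGATAG or else TGATAG), the kind of site that TRPS1 and GATA3 bind, was in 9 promoters (13%), against 19.5% of protein-coding and 25.5% of all promoters, 11.6% of short housekeeping and 15.9% of cytosolic ribosomal protein promoters. AGGTCA, the repeated unit of an oestrogen receptor site, was in 11 (15.9%), against 11.5% and 13.9%. The E-box CACGTG was in 6 (8.7%), against 8.89% and 7.43%, and the palindromic core of the site of NRF1, a factor that acts on mitochondrial genes, was in 1 (1.45%), against 1.72% and 1.36%. The median GC content was 60.3% in these promoters and 63% in protein-coding ones. The 100 bases before the start are printed for 4 named genes, with ETS and YY1 words in capitals, because MRPL53 had the highest level, MRPL58 encodes the peptidyl-tRNA hydrolase of the large subunit, MRPL52 holds AAGATGGC at 2 places, and MRPS25 is the gene called in most comparisons. MRPS25 has 0 of the words searched in its stretch.
MRPL53 (chr2:74472688-74472787, minus strand): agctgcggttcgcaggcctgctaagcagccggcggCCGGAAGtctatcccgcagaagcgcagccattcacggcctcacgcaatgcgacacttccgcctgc
MRPL58 (chr17:75012570-75012669, plus strand): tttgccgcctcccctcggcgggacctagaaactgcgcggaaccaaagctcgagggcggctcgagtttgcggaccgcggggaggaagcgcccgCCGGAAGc
MRPL52 (chr14:22829779-22829878, plus strand): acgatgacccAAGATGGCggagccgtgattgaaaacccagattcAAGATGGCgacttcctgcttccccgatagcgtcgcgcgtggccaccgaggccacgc
MRPS25 (chr3:15065340-15065439, minus strand): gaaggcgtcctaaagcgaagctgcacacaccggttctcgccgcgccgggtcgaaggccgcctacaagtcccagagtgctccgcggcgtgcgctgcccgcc

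The genes also differed from protein-coding genes as a whole in span and in how often another gene started nearby. Their median annotated span (first to last annotated base, introns included) was 11940 bp, against 27483 bp for 19942 protein-coding genes. The short housekeeping genes had 9379 bp, but that list was limited to spans under 20000 bp. A protein-coding gene started on the other strand within 1000 bp of 27 of them (34.6%), against 13.4% of protein-coding genes and 31.6% of short housekeeping genes. MRPL46 and MRPS11 are such a pair with each other, their starts 63 bp apart. Other partners act in mitochondria too: SARS2, the mitochondrial seryl-tRNA synthetase, starts 181 bp from MRPS12, TWNK, the mitochondrial DNA helicase, 148 bp from MRPL43, and NDUFS6, a complex I subunit, 41 bp from MRPL36. In overlap they were close to protein-coding genes as a whole. No other annotated gene overlapped 29 of the 78 spans (37.2%, against 33.1% of protein-coding genes). On the same strand 24 overlapped one (30.8%, against 33.7%), and on the other strand 40 did (51.3%, against 54.8%). Among genes lying inside a gene of the other strand, 288 of 1582 (18.2%) had a higher mean count than the gene around them, which counting whole spans without strand could not give, against 14 of 2134 (0.656%) on the same strand.

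In DMSO libraries the genes held 2723.4 ± 30.6 summed CPM (SD, n = 4), scaled with TMM. Per kilobase of annotated span the level ran from 0.0184 to 30 CPM per kb with a median of 2.23. The order went partly with span: the highest levels came from short genes, and MRPL33 and MRPS22 near the bottom span 216371 and 354692 bp. Where along a gene the reads lay was not tested, so levels of short and long genes may not be comparable. MRPL53, a large-subunit protein found only in mitochondrial ribosomes, was highest at 30.0 ± 0.737 CPM per kb (SD, n = 4), over a gene of 706 bp on chromosome 2. MRPL41 followed at 17.6 ± 3.87 over 677 bp, and MRPL57 at 13.1 ± 1.79 over 2427 bp. MRPL53 lies within the span of CCDC142 on the same strand (mean count 695.1, against 228.3 for MRPL53), so its reads cannot be told apart from those of that gene. Most neighbours in the order of levels were not separated: of its 77 pairs of neighbours, 9 had ranges of mean ± SD that did not overlap, MRPL53 above MRPL41 being one. By the annotated spans used, the low end was separated at each step, with MRPL34 above MRPL33, MRPL33 above MRPS22 and MRPS22 above MRPL23.

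The lowest levels came from very different genes. MRPS22 had 0.134 ± 0.00318 CPM per kb, but its annotated span is 354692 bp and it had 511.5 counts per library on average. Its RefSeq start lies 338188 bp from the GENCODE start used for that span, so its low level depends on the annotation. MRPL33 had 0.338 ± 0.0188 over 216371 bp, with 759 counts per library. Its span overlaps that of BABAM2 on the same strand, which had a mean count of 1616.3. MRPL23, a homologue of a bacterial ribosomal protein at the tunnel exit, was lowest at 0.0184 ± 0.00541 CPM per kb over 37245 bp, and it had between 2 and 16 counts in a library, 8.6 on average. Levels near it on chromosome 11 were mixed. Of the 8 other genes listed around it, TNNT3, LSP1 and PRR33 had 0.00643, 0.0196 and 0.00898 CPM per kb, TNNI2 0.883, SYT8 2.48 and CTSD 6.63, and IFITM10 and the gene ENSG00000250644, which overlaps it on the same strand, 19 and 15.1.

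**Figure D1:**
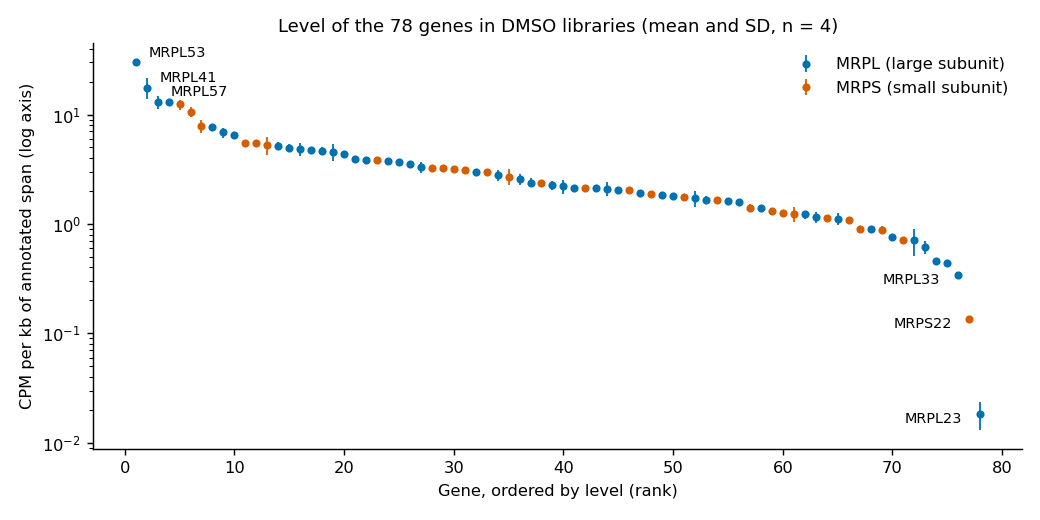
Levels of the 78 genes in DMSO libraries, in CPM per kb of annotated span on a log axis against the rank of the gene. Points are means and bars the SD over 4 libraries, in blue for MRPL and orange for MRPS. MRPL53 stands at 30.0 and MRPL23 at 0.0184, and most genes lie between 0.338 (MRPL33) and 17.6 (MRPL41).

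The first question was whether the whole set moved after TRPS1 degradation. Summed over the 78 genes, the level stayed between 2683.2 and 2835 CPM in all 23 libraries, a ratio of 1.06 between the highest and the lowest. The group means from 0.5 to 4 h were, in time order, 2793.7 ± 10.2, 2742.6 ± 40, 2756.6 ± 52.8 and 2757 ± 54.8 CPM (SD, n = 4 each), and the 24 h mean was 2735.8 ± 50.7 CPM (SD, n = 3). The 4 libraries of 0.5 h lay between 2782.6 and 2806.8 CPM, above the range of 2683.2 to 2757.3 in DMSO libraries, whereas those of every later time overlapped the DMSO range. On the log2 scale the 0.5 h mean was 0.04 above the DMSO mean. MRPL genes summed to 1568.6 ± 10.7 CPM at 0.5 h against 1537.5 ± 20.1 in DMSO, and MRPS genes to 1225.1 ± 12.1 against 1185.9 ± 14.1.

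Short housekeeping genes served as the comparison: 114 genes of glycolysis, the cytoskeleton, splicing, the proteasome, translation factors and similar functions with an annotated span under 20000 bp. Their sum varied more, from 5133.8 to 6398.6 CPM over the 23 libraries, and it differed by replicate number. At 0.5 h it was above the DMSO library of the same number in all 4 replicates: 6259.1 against 5664, 5718.9 against 5660.8, 5349.7 against 5158.1 and 5320.1 against 5198.8 CPM, a difference of the group means of 0.06 on the log2 scale beside 0.04 for the mitochondrial ribosomal protein genes, whose sum was also higher in all 4. By replicate number it was 6045.8 ± 295.6 CPM over the 5 libraries of replicate 1, 5662.1 ± 69.3 over the 6 of replicate 2, 5213.6 ± 77.8 over the 6 of replicate 3 and 5224.1 ± 66.6 over the 6 of replicate 4. Cytosolic ribosomal protein genes (79) spread furthest, from 6245.7 to 10993.7 CPM, and reached 9787.6 ± 1175.7 in replicate 1 against 6408.9 ± 163.8 in replicate 3. The sum of the mitochondrial ribosomal protein genes showed little of this: 2757.4 ± 21.6 CPM in replicate 1, 2793.2 ± 41.8 in replicate 2, 2749.6 ± 24 in replicate 3 and 2709.5 ± 38.2 in replicate 4. Single genes within that sum could differ by replicate number in opposite directions. At 0.5 h MRPL20 had 29.9 CPM in replicate 1 and 24.4 in replicate 3, and MRPL13 had 92.5 and 114. The 78 genes also include spans above the 20000 bp limit of the comparison list. As a share of the mean, the SD of the summed CPM over all 23 libraries was 1.59% for the mitochondrial ribosomal protein genes, 2.76% for 76 respiratory chain subunits, 6.72% for the short housekeeping genes and 19.3% for the cytosolic ribosomal protein genes. The 24 h group has no replicate 1 library, so a pooled mean of the latter lists at 24 h lacks the replicate in which they were highest.

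**Figure D2:**
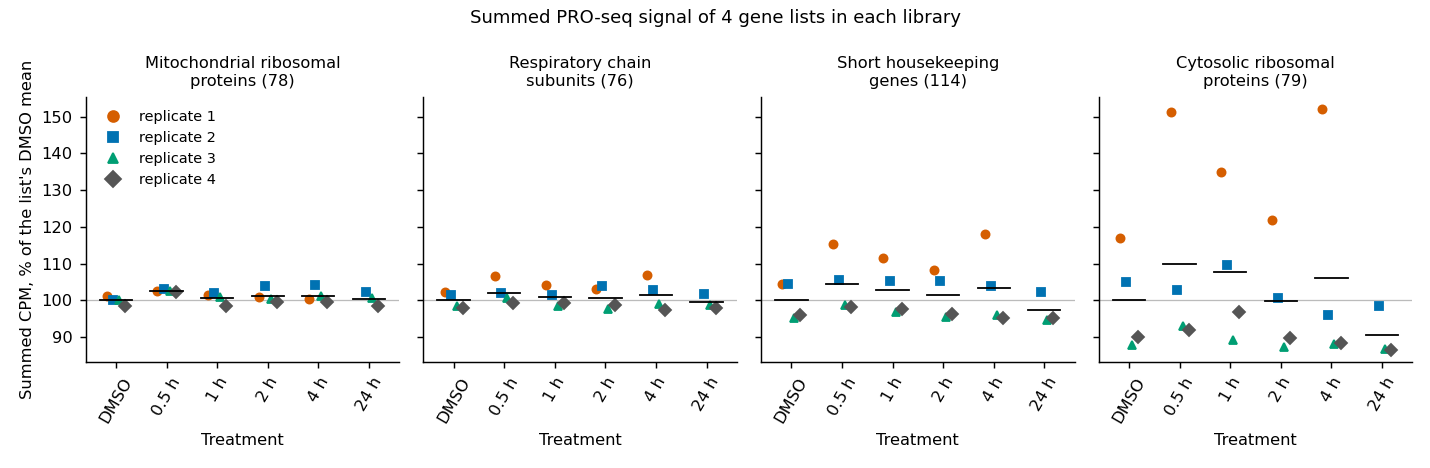
Summed CPM of 4 gene lists in each library, as a percentage of the list's mean over the DMSO libraries, by treatment. Symbols give the replicate number and black lines the group mean. The mitochondrial ribosomal protein genes sit close to 100 in every library, while cytosolic ribosomal protein genes are highest in replicate 1.

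Gene by gene, the changes were small. In time order from 0.5 to 24 h, the median log2 fold change of the 78 genes against DMSO was 0.04, 0.01, 0.02, 0.02 and 0.01, beside 0.01, 0.01, 0, 0.01 and 0 for all 26057 genes tested. Genes with a value above 0 numbered 52, 44, 48, 45 and 44 of 78. Among those of the 78 that overlap no other annotated gene the medians were 0.02, -0.02, -0.01, -0.01 and 0.01. The short housekeeping genes had medians of 0.06, 0.03, 0.02, 0.03 and -0.03, and the cytosolic ribosomal protein genes 0.13, 0.08, 0.05, 0.07 and -0.02. With replicate number as a block these were 0.05, 0.03, 0.02, 0.03 and -0.01, and 0.1, 0.07, 0.05, 0.05 and 0.03, against 0.03, 0.01, 0.02, 0.02 and 0.01 for the mitochondrial ribosomal protein genes. By subunit the MRPL medians were 0.02, 0.01, 0.03, 0.02 and 0.01 and the MRPS medians 0.05, 0.01, 0.02, 0 and 0.01. From 0.5 h to 24 h the median was -0.03, against -0.07 for short housekeeping, -0.13 for cytosolic ribosomal protein and -0.01 for all genes. With the block, which allows for the missing replicate 1 at 24 h, these medians were -0.03, -0.05, -0.1 and 0.

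Single genes were tested with edgeR's quasi-likelihood test, with p-values adjusted by Benjamini-Hochberg over all genes tested (the FDR below) and a threshold of 0.1. Without a replicate term 0 of the 78 passed at 0.5, 1, 2, 4 or 24 h against DMSO, where 0.476%, 1.25%, 0.733%, 0.833% and 0.863% of all genes passed. Unadjusted p was under 0.05 for 5, 5, 4, 0 and 1 of them, and DESeq2 also called 0, with 4, 3, 4, 0 and 1 at unadjusted p under 0.05, where it called 1%, 1.27%, 1.1%, 1.13% and 1.32% of all genes. Counts at unadjusted p are given without the share of all genes and are not read as results. Over the course from 0.5 to 4 h, 77 of the genes were kept, all but MRPL23, and 0 passed, with 4 at unadjusted p under 0.05, where 1.33% of all genes passed; DESeq2 called 0 as well (2 at unadjusted p under 0.05), and 2.21% of all genes. At 24 h against 0.5 h 1 of 78 passed, MRPS25, where 1.99% of all genes passed, and at 24 h against 4 h 0 passed (2 at unadjusted p under 0.05), where 0.453% of all genes did. DESeq2 called MRPS25 alone in the former (3.04% of all genes) and 0 in the latter, with 2 at unadjusted p under 0.05 (0.791% of all genes). The contrasts against DMSO and the course share the DMSO libraries, and those of 24 h share the 24 h libraries.

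The intervals limit what can have been missed. The median standard error was 0.08 at 0.5 to 4 h and 0.09 at 24 h on the log2 scale. The 95% interval of the fold change against DMSO lay within 0.5 of 0 on the log2 scale for 75, 73, 74, 76 and 76 of the 78 genes at the 5 times. Of the 73 genes with a mean of at least 100 counts, at most 1 reached beyond that limit at any time. MRPL23 was the least certain, with an upper bound of 1.37 at 1 h and 1.36 at 4 h.

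**Figure D3:**
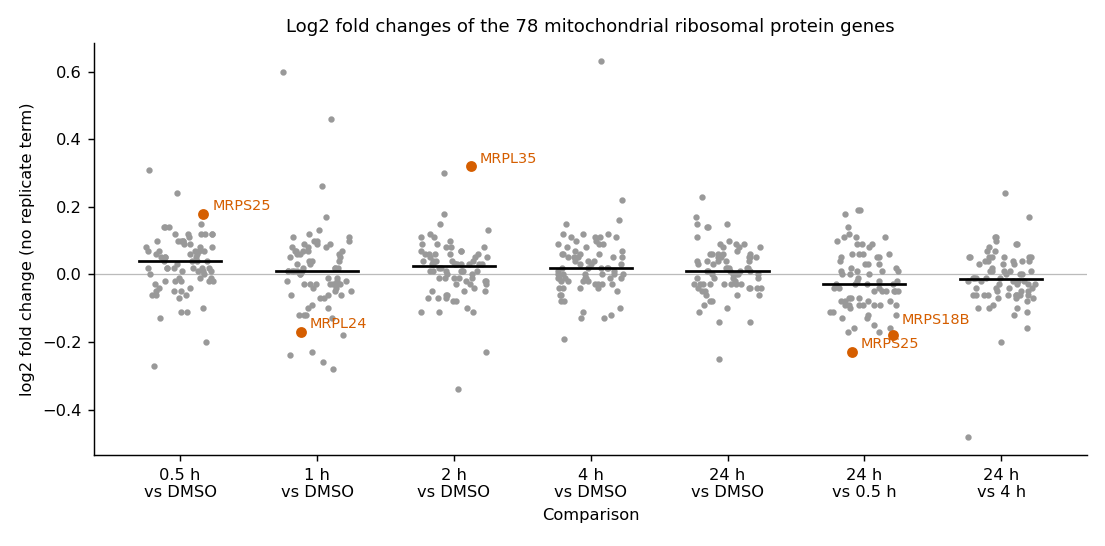
Log2 fold changes of the 78 genes in the 7 pairwise comparisons, from the fit with no replicate term, 1 point per gene with the median as a black line. Orange points passed an FDR of 0.1 in the fit with the replicate block. The medians stay between -0.03 and 0.04, and the points at 0.60 (1 h) and 0.63 (4 h) are MRPL23.

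Because a replicate number was taken to mark a shared harvest, the fit was repeated with that number as a block, which raised the calls over all genes. In time order the calls against DMSO made up 2.48%, 3.25%, 2.43%, 2.49% and 2.65% of all genes, those over the course 4.6%, those of 24 h against 0.5 h 6.34% and those of 24 h against 4 h 1.77%. Of the 78 genes, 1 passed at 0.5 h, 1 at 1 h, 1 at 2 h and 1 over the course, 2 passed at 24 h against 0.5 h, and 0 in the others (2 at 4 h, 3 at 24 h and 2 at 24 h against 4 h had unadjusted p under 0.05). The genes called were MRPS25, MRPS18B, MRPL24 and MRPL35.

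MRPS25, a small-subunit protein found only in mitochondrial ribosomes, has its gene on the minus strand of chromosome 3, from 15009611 to 15065339. Its 4 DMSO libraries had 70.9, 73.0, 72.6 and 67.5 CPM and the 4 of 0.5 h had 86.1, 84.0, 76.0 and 76.2 CPM, in the order of replicates 1 to 4. The 2 ranges do not overlap, and each 0.5 h library lay above the DMSO library of its number. At 1 h replicates 1 and 2, with 78.2 and 78.5 CPM, still lay above the DMSO range, and replicates 3 and 4, with 72.3 and 67.9, within it. The libraries of 2 h had 70.7, 75.2, 69.8 and 70.1 CPM, those of 4 h 69.3, 71.9, 68.9 and 69.7, and replicates 2, 3 and 4 of 24 h 74.2, 66.6 and 65.2, and each of these groups overlapped the DMSO range. The 0.5 h change was 0.18 ± 0.05 on the log2 scale (SE, FDR = 0.223 in edgeR), and with the block 0.18 ± 0.04 (FDR = 0.0177). From 0.5 h to 24 h the log2 fold change was -0.23 ± 0.06 (edgeR FDR = 0.0549, with the block 0.00251), and the course passed with the block (FDR = 0.0215) but not without (FDR = 0.211). The gene overlaps NR2C2, an orphan nuclear receptor, on the other strand, which was at -0.02 ± 0.03 on the log2 scale after 0.5 h. The rise at 0.5 h with the block was called with replicate 3 left out (FDR = 0.087) and not without replicate 1, 2 or 4 (FDR = 0.106, 0.178 and 0.141). Without the block the fall to 24 h was not called with any 1 replicate left out (edgeR FDR = 0.121 to 0.448), although its size stayed between -0.26 and -0.20. With the block the fall was called without replicate 1, 2, 3 or 4 (edgeR FDR = 0.006, 0.035, 0.0685 and 0.058).

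MRPS18B is 1 of 3 mitochondrial relatives of bacterial protein S18, encoded at chr6:30617840-30626395 on the plus strand. In replicates 1 to 4 it had 45.7, 49.5, 44.9 and 49.0 CPM in DMSO and 50.2, 53.3, 52.1 and 49.8 CPM at 0.5 h, and its replicates 2, 3 and 4 of 24 h had 47.4, 46.0 and 42.8. All 3 of these lay below the 0.5 h ones, and overlapped the DMSO range. The change from 0.5 h to 24 h was -0.18 ± 0.06 on the log2 scale (edgeR FDR = 0.179), and -0.18 ± 0.05 with the block (FDR = 0.0616), which was no longer called without replicate 2, 3 or 4 (FDR = 0.229, 0.236 and 0.306). It overlaps PPP1R10 on the other strand, a gene with a mean count of 5511.3 whose log2 fold change at 0.5 h was 0.13 ± 0.05 (FDR = 0.495, with the block 0.0839). MRPS18C, the relative that keeps the place of S18 in the small subunit, did not pass. It had 33.0, 30.6, 33.9 and 33.1 CPM in DMSO and 22.8, 28.6, 31.8 and 30.2 CPM at 0.5 h, a log2 fold change of -0.20 ± 0.11 (edgeR FDR = 0.741, with the block 0.195) that was -0.11 without replicate 1, and after 24 h it was -0.14 ± 0.12 (FDR = 0.888), the lowest value of that time among genes with at least 100 counts. MRPS18A, whose protein sits in the large subunit despite its symbol, had 33.8 ± 0.429 CPM in DMSO (SD, n = 4) and 35.2 ± 0.926 at 24 h (SD, n = 3), a change of 0.06 ± 0.06 (edgeR FDR = 0.909).

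MRPL35, a homologue of a bacterial large-subunit protein, lies at chr2:86199355-86213790 and overlaps no annotated gene. It had 13.8, 17.0, 18.3 and 15.3 CPM in DMSO and 20.4, 21.6, 20.2 and 18.7 CPM at 2 h. All 4 libraries of 2 h lay above the DMSO range. The change was 0.32 ± 0.09 on the log2 scale, with a 95% interval from 0.13 to 0.51 (edgeR FDR = 0.183, with the block 0.0821), and the call with the block was lost without any 1 of the 4 replicates (FDR = 0.136 to 0.306). At 4 h the level was 15.9, 16.6, 18.4 and 18.3 CPM, which overlaps the DMSO libraries. Its 4 named pseudogenes in the table summed to 5.39% of its mean count.

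MRPL24, also a homologue of a bacterial large-subunit protein, lies at chr1:156737303-156741590. It had 50.7, 59.0, 54.6 and 57.3 CPM in DMSO and 46.5, 49.7, 53.5 and 47.3 CPM at 1 h. The ranges overlap, but each 1 h library lay below the DMSO library of its number. The change was -0.17 ± 0.06 on the log2 scale (edgeR FDR = 0.323, with the block 0.0951), and it was not called with the block without any 1 of the 4 replicates (FDR = 0.104 to 0.446). At 24 h the values were 59.7, 55.9 and 54.2 CPM, within or just above the DMSO range.

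**Figure D4:**
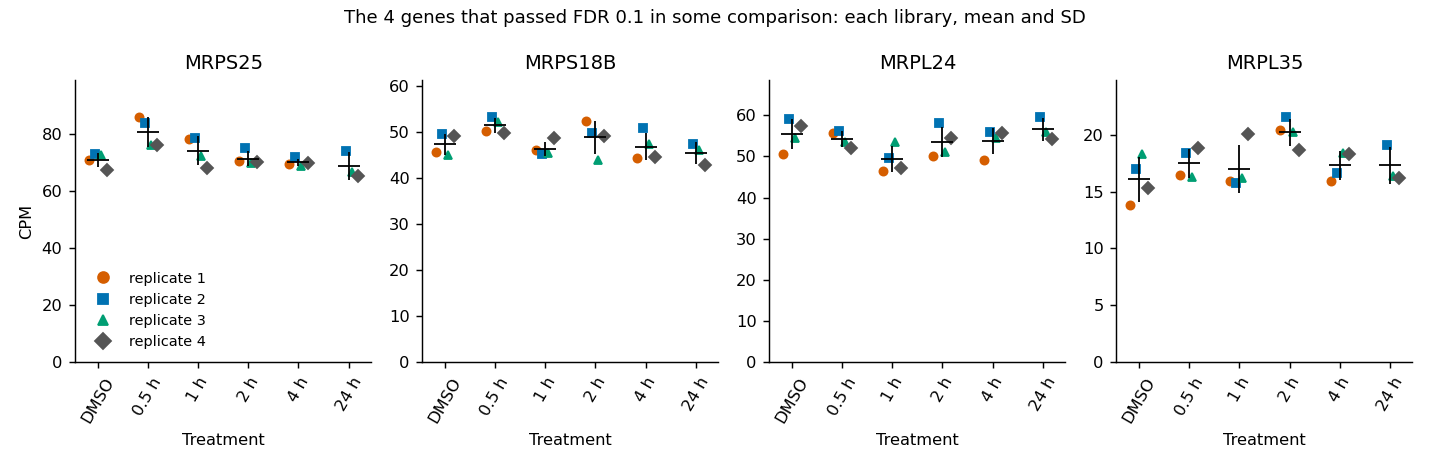
CPM of MRPS25, MRPS18B, MRPL24 and MRPL35 in each library by treatment, with replicate number as symbol and black marks for the mean and SD of a group (n = 4, and 3 at 24 h). The axis starts at 0. MRPS25 at 0.5 h (76.0 to 86.1) and MRPL35 at 2 h (18.7 to 21.6) lie above their DMSO ranges.

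Separation of the libraries alone was no more frequent than among all genes. The CPM range of a time point lay wholly above or below the DMSO range for 3, 2, 3, 0 and 3 of the 78 genes at 0.5, 1, 2, 4 and 24 h, where 4.97%, 5.37%, 4.85%, 4.43% and 9.49% of all genes did so. Besides those described above these were MRPS30 at 0.5 h, MRPS22 at 1 h, MRPS27 at 1 and 2 h, MRPS17 at 2 h, and MRPL22, MRPL36 and MRPS21 at 24 h. MRPS27, an RNA-binding protein of the small subunit, had 148 to 160 CPM at 2 h against 135 to 146 in DMSO, a log2 fold change of 0.12 ± 0.04 (edgeR FDR = 0.358, with the block 0.101). MRPS17, a homologue of bacterial S17, was the only gene to lie wholly below at any time: 14.1 to 15.9 CPM at 2 h against 16.7 to 18.8, a log2 fold change of -0.23 ± 0.07 (FDR = 0.29, with the block 0.146). MRPS17 lies in the span of NIPSNAP2 on the same strand, which had a mean count of 1010.7.

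The other named genes did not pass with or without the block. MRPL46, with few counts, had 8.28, 8.45, 7.78 and 6.46 CPM at 1 h against 4.70, 6.86, 7.01 and 3.83 CPM in DMSO, a log2 fold change of 0.46 ± 0.16 (edgeR FDR = 0.286, with the block 0.15) at a mean of 69 counts. MRPS11, which starts 63 bp away on the other strand, had 0.01 at that time, and MRPL46 also overlaps a gene on its own strand with a mean count of 292. MRPL42 at 0.5 h was at 0.11 ± 0.04 (FDR = 0.421, with the block 0.123) and 0.07 without replicate 1, and its 5 named pseudogenes summed to 42.4% of its mean count. MRPL3, which helps to shape the peptidyl transferase centre, changed by -0.16 ± 0.07 from 0.5 h to 24 h (FDR = 0.397, with the block 0.109, and 0.0702 with the block and without replicate 2). The largest changes of genes with at least 100 counts at the remaining times were MRPL41 at 0.5 h (-0.27 ± 0.14, FDR = 0.682), MRPS15 and MRPL52 at 1 h (0.26 ± 0.10, FDR = 0.357, and -0.26 ± 0.13, FDR = 0.599), MRPS2 and MRPL16 at 4 h (0.22 ± 0.15, FDR = 0.9, and -0.13 ± 0.10, FDR = 0.929), and MRPL36 at 24 h (0.23 ± 0.08, FDR = 0.379). Single replicates moved most of these: MRPL41 was -0.15 without replicate 1, MRPS15 0.16 without replicate 2, MRPL52 -0.40 without replicate 3, and MRPS2 and MRPL16 0.11 and -0.07 without replicate 3. MRPL36 stayed between 0.22 and 0.26.

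The genes with further roles in mitochondrial transcription, ribosome rescue and decoding did not pass in any comparison. MRPL12, which also binds the mitochondrial RNA polymerase, had 14.7 ± 1.01 CPM in DMSO and 14.6 to 14.8 CPM as the mean of every treated group, and it overlaps a gene on its own strand with a mean count of 529.5. MRPL58, which frees peptides from stalled ribosomes, had 20.4 ± 1.94 CPM in DMSO and 22.9 ± 3.22 at 24 h, a log2 fold change of 0.17 with a 95% interval from -0.01 to 0.34 (edgeR FDR = 0.73), which was 0.11 without replicate 2 and 0.26 without replicate 4. MRPS12, the homologue of the bacterial decoding-site protein, had 11.7 ± 2.23 CPM in DMSO and 12.4 ± 1.58 at 0.5 h, a change of 0.08 with an interval from -0.22 to 0.38 (FDR = 1), which was 0.00 without replicate 1, 0.04 without replicate 4 and 0.17 without replicate 2. Its neighbour SARS2 had 0.05 at that time.

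Among genes that serve the same machinery few passed. Of 5 further mitoribosome proteins, 17 mitochondrial aminoacyl-tRNA synthetases, 9 genes of mitochondrial DNA transcription and replication, 9 nuclear regulators of mitochondrial genes and 76 respiratory chain subunits, 0 passed without the block at any time against DMSO, where 0.476% to 1.25% of all genes passed. At most 0, 4, 2, 2 and 2 in these lists had unadjusted p under 0.05 at any one time. These counts too are given without the share of all genes and are not read as results. Among 16 genes listed for mitochondrial translation 1 passed, MTRFR, a ribosome rescue factor, which rose by 0.42 ± 0.07 on the log2 scale at 2 h (edgeR FDR = 0.00168), 0.39 ± 0.07 at 4 h (FDR = 0.00384) and 0.36 ± 0.07 at 24 h (FDR = 0.0164). With the block it passed at 0.5 h too (0.22 ± 0.05, FDR = 0.0277). Among 26 assembly factors 1 passed, RPUSD4, a pseudouridine synthase that acts on the large-subunit RNA, which rose by 0.27 ± 0.06 at 0.5 h (FDR = 0.0744) and was lower by 24 h, at -0.25 ± 0.07 against 0.5 h (FDR = 0.085). With the block CYCS (cytochrome c, 0.19, FDR = 0.0876) and MYC (0.16, FDR = 0.0762) passed at 0.5 h, where 2.48% of all genes passed. The synthetase FARS2 passed with the block at 1 h (0.10, FDR = 0.0671), where 3.25% of all genes passed. At 24 h against 0.5 h with the block the translation factor GFM1 (-0.15, FDR = 0.0446) passed, as did LRPPRC (-0.14, FDR = 0.0897) from the same list. AARS2 (-0.27, FDR = 0.0274), TFAM (-0.14, FDR = 0.0836), COX7C (-0.17, FDR = 0.0263) and RPUSD4 (-0.22, FDR = 0.035) did as well. So did the cytosolic ribosomal protein genes RPS23, RPL41, RPL29 and RPS27. All of these went downward, where 6.34% of all genes passed in either direction. Of the 79 cytosolic ribosomal protein genes RPS23 passed without the block at 0.5 h (0.21 ± 0.04, FDR = 0.0159), and 9 did with it, all upward, where 2.48% of all genes passed in either direction. The difference from the mitochondrial ribosomal protein genes was not tested. Of the 114 short housekeeping genes 0 passed without the block at 0.5 h (7 at unadjusted p under 0.05) and 2 with it, EIF3K and EIF1, while DESeq2 called 2. At 24 h against 0.5 h with the block, 8 of the 114 passed, all downward, where 6.34% of all genes passed in either direction.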

How the data were processed

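The authors trimmed reads with cutadapt 1.8.1, collapsed duplicates by molecular identifier, removed ribosomal DNA reads, aligned to hg38 with Bowtie2 2.4.4 and SAMtools 1.9, and deposited raw whole-number counts per Ensembl gene for 23 libraries. The annotation release behind the counts and the strand setting are not given in the sources used here, and 60463 of the 60605 identifiers matched GENCODE v44. edgeR 4.0.16 (R 4.3.3) was run on these counts with filterByExpr (minimum count 10, total 15), TMM scaling, glmQLFit and glmQLFTest, in a fit of 23 libraries (26057 genes) and, for the course, of 20 (25255 genes). DESeq2 1.42.0 was an alternative. The scripts were tested on simulated data.

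Same-numbered libraries deviated together (mean correlation of deviations from group means 0.287 over 55 pairs, against -0.0825 for 165 pairs of different number), with means of 0.578, 0.0896, 0.434 and 0.141 for replicates 1 to 4. Deviations cancel within a group, so a positive mean for same-numbered pairs brings a negative one for the others. Pairs of different number ranged from -0.623 to 0.481, and 48 of the 165 were over 0.1. The labels say that replicates were handled at different times of 1 day; that a number marks such a harvest is inferred, and the fit with replicate number as a block is printed where it changes a call. The members and lists were chosen with earlier results of these data known. Named genes were those called, the 10 smallest FDRs with the block, the largest change each way at each time (mean of at least 100 counts), the 3 highest and 3 lowest levels, the MRPS18 relatives, MRPL12, MRPL58 and MRPS12. Gene spans came from GENCODE and promoter letters from RefSeq. Reads of overlapping genes on a strand and of near-identical pseudogenes may be shared. Alternatives were the block, DESeq2, RLE size factors, total counts, library sizes without mitochondrial DNA genes, no low-count filter, DMSO with 1 time point alone, genes without overlaps and leaving out each replicate.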

Additional observations from a re-analysis of the deposited data

Results flagged for a closer look

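MRPS25 differed between time points: its log2 fold change at 24 h against 0.5 h was -0.23 (edgeR FDR = 0.0549). In 4 of 135 groups of 4 libraries tested, 1 library stood apart from the other 3 by Dixon's criterion; chance gives about 1 in 20. MRPL35 had 20.1 CPM in 1 h replicate 4 against 15.8 to 16.2 in the others. MRPL3 had 73.7 CPM in 0.5 h replicate 2 against 90.3 to 92.5. MRPS18C had 22.8 CPM in 4 h replicate 1, the shallowest library, against 31.9 to 33.7. MRPL36 had 15.2 CPM in DMSO replicate 4 against 13.9 to 14.0.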

How the results depend on the processing

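Depth limits MRPL23 most (2 to 16 counts per library), then the other genes under 100 counts. With the replicate block the calls rose from 0 to 1 at 0.5, 1 and 2 h and over the course and from 1 to 2 at 24 h against 0.5 h, and the block changed no other count of calls. The 1 call at 24 h against 0.5 h fell to 0 on total counts and with no low-count filter. Leaving out 1 replicate gave 0 calls in every comparison without the block, and with the block, an alternative added after seeing the data, 0 to 1 over the course, at 0.5 h and at 1 h and 1 to 3 at 24 h against 0.5 h, and 0 at 2 h. The median at 1 h was -0.02 among genes that overlap no other gene. On total counts the log2 ratio of the summed CPM to DMSO was -0.02 at 1 h, -0.02 at 4 h and 0.04 at 24 h. MRPL12 at 0.5 h ranged from -0.04 to 0.01 without 1 replicate, and from -0.04 to 0.00 with the block as well, so its sign is not set. The cause of these shifts was not tested. Otherwise 93 counts of calls, 74 medians, 27 sums and 304 values of named genes stayed on their side of the threshold or within the spread, and 7 named values passed and 6 ceased to pass under an alternative.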
